A study of Mus musculus with 48 samples.

Results

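Nefl, Nefm, Nefh and Ina code for the light, medium and heavy neurofilament subunits and for alpha-internexin, which together form the intermediate filaments of axons in the mature central nervous system. They were taken by gene symbol and matched by Ensembl identifier, and these 4 genes are 4 of the 48526 genes in the count table. Ribosome-associated RNA and input RNA were sequenced from cerebral cortex of 12 male wild-type C57BL/6JRj mice, 4 at each of 3 ages, with no treatment or transgene. Each mouse gave 4 libraries, 48 in all: RNA of the total homogenate (input TH), RNA of the ribosome pellet under a sucrose cushion from that homogenate (SC TH), RNA of synaptosomes (input SYN) and RNA of the ribosome pellet from synaptosomes (SC SYN). By the authors' methods, lysed homogenate was also passed through a syringe and centrifuged before the cushion, a step not given for synaptosomes. The part of this step in the comparisons with SC TH was not tested. The ages are 3 weeks (3w), an adult age that the sample titles give as 6 months and the treatment protocol as 5 months (5m below), and 18 months (18m, given as 18/19 months in the protocol). Synaptosomes are resealed nerve terminals with attached postsynaptic membranes, prepared here as a bulk fraction, so that fewer particles of a kind and less RNA in each cannot be told apart.

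Neurofilaments are heteropolymers: the light subunit forms the core, and the medium and heavy subunits carry long tails that project sideways and are phosphorylated at lysine-serine-proline repeats in the axon. The amount of neurofilament is known to set axon caliber and thereby conduction speed, and alpha-internexin and the light subunit precede the heavy subunit in development. The proteins are carried down the axon by slow transport, and they are also found in synapses, while most of their messenger RNA is thought to lie in the cell body. The question of the comparisons was how much of each messenger RNA was in synaptosomes, how much was with ribosomes, and whether either changed with age.

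The 4 genes share a central rod and differ in their tails. The 60 coding bases most alike in Nefl, Nefh and Ina lay at the end of the rod's coding part, across the same exon junction in each gene, after an exon of 125 bases that all 4 genes have. They are shown because they give the family relation and the limit of it for read counting. They span GRCm38 chr14:68086061-68086508 (plus strand) for Nefl, chr11:4941394-4943888 (minus strand) for Nefh and chr19:47021920-47023356 (plus strand) for Ina, with the intron between exons 2 and 3 inside, or between exons 3 and 4 for Nefh. Capitals mark the 50 bases identical in these 3 genes, and the pairs had 55 (Nefl and Nefh), 54 (Nefh and Ina) and 51 (Nefl and Ina) identical bases.
Nefl: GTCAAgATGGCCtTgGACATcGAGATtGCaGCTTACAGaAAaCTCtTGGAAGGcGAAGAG
Nefh: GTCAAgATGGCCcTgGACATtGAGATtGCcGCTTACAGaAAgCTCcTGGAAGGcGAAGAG
Ina: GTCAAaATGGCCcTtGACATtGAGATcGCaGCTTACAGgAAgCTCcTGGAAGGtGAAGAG

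The tail is where the heavy subunit differs. In-frame lysine-serine-proline codons (AAA or AAG, then TCN, AGT or AGC, then CCN) occurred 51 times in the 1089 codons of Nefh, 4 times in the 847 codons of Nefm, and not in the 542 codons of Nefl or the 500 codons of Ina. The 180 bases of Nefh with the most of them, at chr11:4940884-4941063 on the minus strand in exon 4, hold 10, in capitals here.
Nefh tail: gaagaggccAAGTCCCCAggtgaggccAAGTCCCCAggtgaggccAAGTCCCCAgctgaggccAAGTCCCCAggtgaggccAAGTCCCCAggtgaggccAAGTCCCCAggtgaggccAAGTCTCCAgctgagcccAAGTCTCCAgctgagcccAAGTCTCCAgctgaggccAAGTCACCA

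The stretches that a read covers are longer than this likeness. No window of a read's length in the main Nefm transcript or the Nefh transcript occurred in a transcript of another gene, and 42 of the 3894 windows of Nefh occurred more than once within Nefh itself. In Nefl, 1008 of 3280 windows (30.7%) were also in a Nefm transcript, in a region where the genes overlap: Nefl (chr14:68083863-68089095, plus strand) and Nefm (chr14:68082590-68124846, minus strand) are neighbours, and a long Nefm isoform ends in an exon that overlaps 1108 bases of exon 1 of Nefl on the other strand. In Ina (chr19:47014698-47025327, plus strand), 356 of 3140 windows (11.3%) lay where exon 1 overlaps Nt5c2 on the other strand. Nefh (chr11:4938754-4948064, minus strand) overlapped no exon of another gene. Counting used no strand, so reads from these overlaps cannot be assigned to a strand. Whether such reads were counted for 1 of the genes or left out is not known. The levels of Nefl, Nefm and Ina carry this limit.

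Library totals ranged from 1780267 to 18590040 counts, lowest in input SYN (1780267 to 7879536). The median total rose with age in every fraction. At 3w, 5m and 18m it was 4448520, 8643430 and 12328600 counts in SC TH and 5956010, 10290900 and 10787500 in SC SYN. In the same order it was 3164660, 3212300 and 5790820 in input SYN and 10260600, 10827700 and 11400700 in input TH. The part of depth in the age steps was not tested. The smallest count of any of the 4 genes was 75 reads, for Nefh in input SYN at 3w, and 75 to 535 reads stood behind Nefh in the 12 libraries of that fraction. All 5 astrocyte, 5 oligodendrocyte, 5 microglial and 6 pan-neuronal markers had reads in every group, so no group lacked a marker. The summed level of the astrocyte markers ranged from 3383 to 6256 CPM (reads of a gene relative to the scaled total of its library) over the TH libraries and from 11597 to 15098 CPM over the SYN libraries. That of the pan-neuronal markers was 3184 to 6652 CPM in TH and 7810 to 10022 CPM in SYN. That of the endothelial markers was 54.5 to 189 CPM in TH and 2.79 to 18.0 CPM in SYN. That of 5 nuclear RNAs such as Malat1 was 16698 to 20321 CPM in input TH, 5225 to 13165 CPM in SC TH and 843 to 4108 CPM in SYN. So the pellet of the homogenate held less of these nuclear RNAs than its input, without overlap. The part of these differences in the results on SYN against TH and on SC TH against input TH was not tested.

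Per length, Nefl had the highest level of the 4 genes in all 48 libraries. As CPM per kilobase of exon, with scale factors set over the 48 libraries, Nefl was at 71.8 ± 6.89 in input TH at 5m, Ina at 45.9 ± 4.53, Nefm at 15.7 ± 1.71 and Nefh at 11.9 ± 1.60 (mean ± SD, n = 4). Nefl made up 44.2 to 63.4% of the summed level of the 4 genes over the 48 libraries, Ina 19.8 to 35.4%, Nefm 6.68 to 18.2% and Nefh 5.36 to 10.9%. Nefl and Ina kept the first and second place in every library. The order of Nefm and Nefh was less firm: Nefh was above Nefm in 7 of 12 libraries of input SYN, in 2 of 12 of input TH and in none of SC TH or SC SYN. With the length of the longest transcript in place of all exons, Nefm was above Nefh in all 48 libraries and above Ina in 2 libraries of SC TH, and its mean share was 16.6% rather than 11.3%. With only the exon length shared with no other gene, Nefl made up 50.7 to 69.2%. Nefh was then above Nefm in 3 of 12 libraries of input SYN and in no other library. Only the length was changed in that measure, so any reads from the overlaps that had been counted stayed in it.

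**Figure D1:**
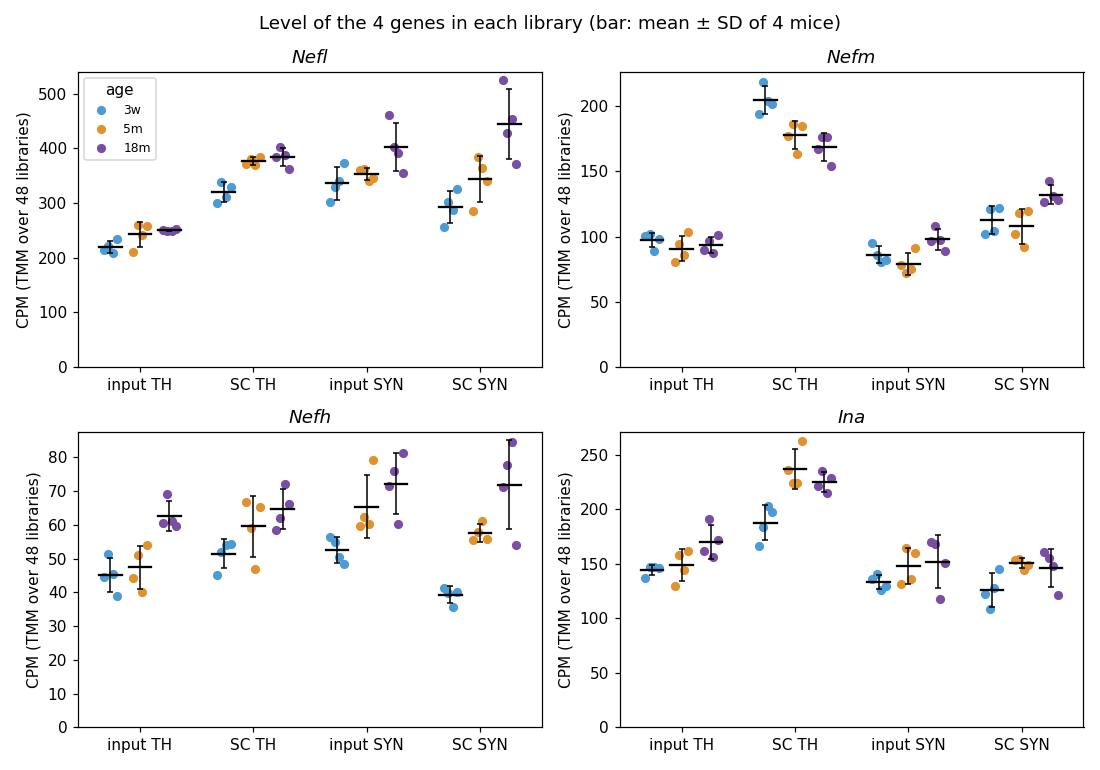
Level of each gene (CPM, linear axis from 0, scaled over the 48 libraries) in the 4 fractions, with 1 point per mouse and bars for the mean ± SD of 4 mice at 3w, 5m and 18m. Nefm was highest in SC TH, where its 4 libraries at 3w lay between 193 and 219 CPM, and Nefl in SC SYN at 18m, between 371 and 524 CPM.

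In the homogenate, Nefl, Nefm and Ina were more abundant in the ribosome pellet than in the input at every age and Nefh at 3w and 5m, with the highest fold for Nefm. For the comparisons that follow, CPM are given on the scale of the libraries compared, so the value of a library differs a little from one comparison to the next. At 3w, Nefm was at 112, 116, 102 and 111 CPM in input TH of the 4 mice and at 239, 266, 250 and 254 CPM in SC TH. No library of the one fraction reached the other, and SC TH was 2.29-fold above the input (log2 fold change 1.19, SE 0.0746, adjusted p = 5.75e-13 by edgeR's quasi-likelihood test). At 5m the fold was 2.08 (adjusted p = 3.43e-12) and at 18m it was 1.86 (adjusted p = 4.22e-11), each higher in 4 of 4 mice.

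Nefl and Ina, the most abundant of the 4, were shifted to the ribosome pellet of the homogenate by less than Nefm. Nefl was at 240, 254, 238 and 265 CPM in input TH at 3w and at 371, 411, 381 and 415 CPM in SC TH. The fold was 1.58 at 3w (log2 0.66, SE 0.0631, adjusted p = 1.43e-09), 1.65 at 5m (adjusted p = 1.86e-10) and 1.59 at 18m (adjusted p = 4.89e-10). Ina was 1.42-fold higher in SC TH at 3w (adjusted p = 4.55e-06), 1.69-fold at 5m (adjusted p = 2.81e-09) and 1.37-fold at 18m (adjusted p = 8.46e-06). For both genes the 4 libraries of SC TH lay above the 4 of input TH at every age.

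Nefh had the smallest shift, and its libraries overlapped between the 2 fractions at every age. It was at 49.9, 58.7, 51.8 and 44.0 CPM in input TH at 3w against 56.0, 63.2, 66.4 and 68.4 CPM in SC TH, a 1.24-fold difference (log2 0.31, SE 0.108, adjusted p = 0.0172). Without mouse 189 the adjusted p was 0.0694 and without mouse 190 it was 0.151. At 5m the fold was 1.33 (adjusted p = 0.000994). At 18m it was 1.07 with an adjusted p of 0.375 and a 95% interval of the log2 fold change from -0.10 to 0.31. Thus 4 of 4, 4 of 4 and 3 of 4 members passed the test at 3w, 5m and 18m, where 52.8%, 62.1% and 64.0% of all genes tested did. The 6 pan-neuronal markers, such as Snap25 and Rbfox3, had a median log2 fold change of 0.59, 0.76 and 0.63 in the same comparisons, and all genes of -0.05, -0.05 and -0.01.

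In synaptosomes, Nefm was the 1 member that was higher in the ribosome pellet than in the input at an adjusted p under the threshold. It was at 81.4, 90.6, 86.1 and 73.7 CPM in input SYN at 18m and at 106, 117, 107 and 108 CPM in SC SYN, higher in every mouse (1.32-fold, log2 0.41, SE 0.104, adjusted p = 0.0108). The fold was 1.27 at 3w (adjusted p = 0.0263) and 1.31 at 5m (adjusted p = 0.0116), higher in 4 of 4 mice at each age. These calls depend on single mice: the adjusted p was 0.166, 0.0809 and 0.153 at 3w without mouse 188, 189 and 190, it was 0.133 at 5m without mouse 192, and 0.0653 at 18m without mouse 198.

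Nefh went the other way at 3w. It was at 48.9, 47.1, 44.7 and 42.3 CPM in input SYN and at 35.2, 33.8, 30.0 and 33.9 CPM in SC SYN, so that no library overlapped (0.723-fold, log2 -0.47, SE 0.124, adjusted p = 0.0103). With no filter on low counts the adjusted p was 0.0720. At 5m the log2 fold change of Nefh was -0.25 (adjusted p = 0.149), lower in 4 of 4 mice and again with no overlap. At 18m the log2 fold change was -0.03 (adjusted p = 0.907), and without mouse 198 it was 0.12. That mouse, at 45.6 CPM in SC SYN, lay below the other 3 at 60.2 to 69.2 CPM. Nefl at 3w had a log2 fold change of -0.24 (adjusted p = 0.157), lower in 4 of 4 mice, and no call was made for Ina at any age. The members that passed were 2 of 4 at 3w, 1 of 4 at 5m and 1 of 4 at 18m, with 18.5%, 20.0% and 12.6% of all genes called.

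**Figure D2:**
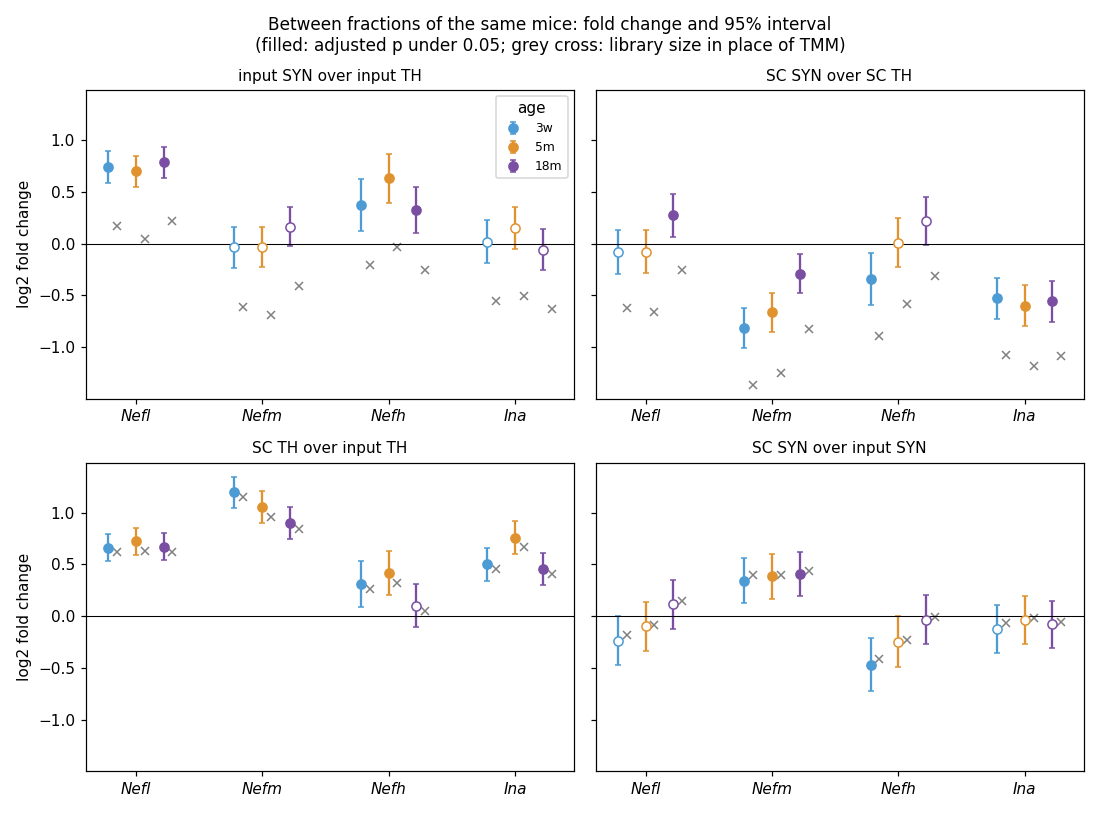
Log2 fold change between fractions of the same mice for the 4 genes at 3w, 5m and 18m, with the 95% interval, filled where the adjusted p is under 0.05. Grey crosses give the value scaled to library size in place of TMM, which lowers every value of SYN over TH and moves SC over input little.

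With TMM scaling, input RNA of synaptosomes held more Nefl and Nefh than the homogenate at every age. By library size, as given below, Nefl passed only at 18m and the sign of Nefh turned at every age. Nefl was at 201, 213, 200 and 221 CPM in input TH at 3w and at 319, 345, 352 and 377 CPM in input SYN, with no overlap (1.66-fold, log2 0.73, SE 0.0750, adjusted p = 1.24e-09). The fold was 1.62 at 5m (adjusted p = 3.00e-09) and 1.72 at 18m (adjusted p = 2.35e-10). Nefh was higher in input SYN too, 1.29-fold at 3w (adjusted p = 0.00812), 1.54-fold at 5m (adjusted p = 2.80e-05) and 1.25-fold at 18m (adjusted p = 0.0104), in 4 of 4 mice at each age. At 5m it was at 43.1, 48.1, 37.8 and 50.8 CPM in input TH and at 63.3, 64.1, 64.1 and 85.1 CPM in input SYN, and this was the age without overlap. Without mouse 187 the call at 3w was lost (adjusted p = 0.0703), and without mouse 198 that at 18m (adjusted p = 0.109), which DESeq2 did not make either (0.0608). At 3w the summed pan-neuronal markers were at 3628 to 3939 CPM in input TH and at 8834 to 10015 CPM in input SYN. This sum, scaled over the 48 libraries, thus had a larger step than Nefl or Nefh, and its part in the result was not tested.

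Nefm and Ina did not pass the test between input SYN and input TH with TMM scaling, while by library size, as given below, both passed as lower in SYN at every age. Nefm had log2 fold changes of -0.04, -0.04 and 0.16 at 3w, 5m and 18m, with 95% intervals from -0.23 to 0.16, from -0.23 to 0.16 and from -0.02 to 0.35. Without mouse 198 the value at 18m was 0.24 (adjusted p = 0.0393). Ina had 0.02, 0.15 and -0.06, with intervals from -0.19 to 0.23, from -0.05 to 0.35 and from -0.26 to 0.14. Thus 2 of 4 members passed at each age, where 71.0%, 72.7% and 72.3% of all genes did.

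In the ribosome pellets, Nefm and Ina were lower in SC SYN than in SC TH at every age. Nefm was at 196, 218, 201 and 202 CPM in SC TH at 3w and at 106, 126, 107 and 126 CPM in SC SYN, 0.569-fold (log2 -0.81, SE 0.0934, adjusted p = 3.81e-08). It was 0.632-fold at 5m (adjusted p = 7.34e-07) and 0.817-fold at 18m (adjusted p = 0.00796), when the 4 mice were at 164, 173, 170 and 151 CPM in SC TH and at 131, 143, 131 and 132 CPM in SC SYN. Ina was at 168, 184, 201 and 198 CPM in SC TH at 3w and at 126, 113, 131 and 150 CPM in SC SYN (0.693-fold, adjusted p = 3.84e-05), 0.661-fold at 5m (adjusted p = 5.46e-06) and 0.679-fold at 18m (adjusted p = 2.00e-05). The libraries of the 2 fractions overlapped for neither gene at any age.

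Nefl and Nefh did not keep a common sign between SC SYN and SC TH. Nefl had a log2 fold change of -0.08 at 3w and -0.08 at 5m (adjusted p = 0.517 and 0.509), and was 1.21-fold higher in SC SYN at 18m (adjusted p = 0.0234), at 546, 430, 453 and 381 CPM against 376, 396, 374 and 354 CPM in SC TH. The highest library was that of mouse 195, and without it the adjusted p at 18m was 0.181, while without mouse 197 it was 0.0675 and with no filter on low counts 0.139. By library size Nefl was lower in SC SYN at 18m (-0.26). Nefh was 0.789-fold at 3w (adjusted p = 0.0172, or 0.112 without mouse 189), had a log2 fold change of 0.01 at 5m (-0.12 without mouse 193) and 0.22 at 18m (adjusted p = 0.100, or 0.0242 without mouse 198). The members that passed were 3 of 4 at 3w, 2 of 4 at 5m and 3 of 4 at 18m, where 63.5%, 67.8% and 62.1% of all genes passed.

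The direction of SYN against TH rests on how the libraries are put on 1 scale. TMM scaling assumes that most genes do not differ. Scaled to library size instead, the median gene shifted by -0.53 to -0.65 on the log2 scale in these 6 comparisons. Nefl was then 0.17, 0.04 and 0.21 in input SYN against input TH at 3w, 5m and 18m, of which only 18m passed (adjusted p = 0.0145), and Nefh became -0.20, -0.03 and -0.25, of which 18m passed (adjusted p = 0.0219). Nefm was -0.61, -0.69 and -0.41 (adjusted p = 4.49e-07, 4.58e-08 and 6.43e-05) and Ina -0.55, -0.50 and -0.63 (adjusted p = 4.14e-06, 1.14e-05 and 2.59e-07). So the 2 members called in the inputs at 3w and at 5m were Nefl and Nefh with TMM and Nefm and Ina by library size. In the pellet, Nefm was -1.36, -1.25 and -0.82, Ina -1.08, -1.19 and -1.09, Nefl -0.63, -0.66 and -0.26, and Nefh -0.89, -0.58 and -0.31, each with an adjusted p below the threshold. Of the genes called at 3w in the pellet, 49.0% were higher in SYN with TMM and 25.4% by library size, and for the inputs 44.6% and 24.6%. The lower level of Nefm and Ina in SC SYN had the same sign under both scales. The sign turned for Nefh in the inputs at every age and in the pellets at 5m and 18m, and Nefl in the pellets at 18m turned from called higher (0.27) to called lower (-0.26, adjusted p = 0.0264).

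Ratios between the genes of 1 library need no scaling and are given as a description, with no test. Reads of Nefl per read of Nefm in SC TH were 1.52 to 1.64 at 3w, 2.05 to 2.27 at 5m and at most 2.35 at 18m, so the youngest mice stood apart from both other ages. In input TH the mean was 2.26 ± 0.121 at 3w, 2.68 ± 0.144 at 5m and 2.68 ± 0.173 at 18m, and again no library at 3w reached those at 5m (2.14 to 2.39 against 2.51 to 2.82). In input SYN the ratio was higher at every age than in the other 3 fractions, on average 3.94, 4.50 and 4.12, with overlap between ages (3.17 to 4.54 at 3w and 3.78 to 5.05 at 5m). In SC SYN it was 2.49 to 2.76 at 3w and 2.80 to 3.95 at 5m. Within each fraction the mean ratio was thus lowest at 3w. The ratio carries the limit of the overlap of Nefl and Nefm given above.

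The reads of Nefh per read of Nefm followed the same order of ages in TH. In SC TH they were 0.234 to 0.270 at 3w, 0.287 to 0.377 at 5m and 0.349 to 0.430 at 18m. In input TH the means were 0.464 ± 0.0534, 0.522 ± 0.0364 and 0.670 ± 0.0569. In SC SYN they were 0.329 to 0.405 at 3w and 0.466 to 0.665 at 5m, without overlap. The reads of Nefl per read of Ina were 1.30 to 1.84 over the 24 libraries of TH and 1.86 to 3.32 over the 24 libraries of SYN, so the ranges of the compartments did not overlap. Nefh per read of Ina was 0.276 to 0.367 in SC SYN at 3w, 0.360 to 0.423 at 5m and 0.443 to 0.570 at 18m.

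**Figure D3:**
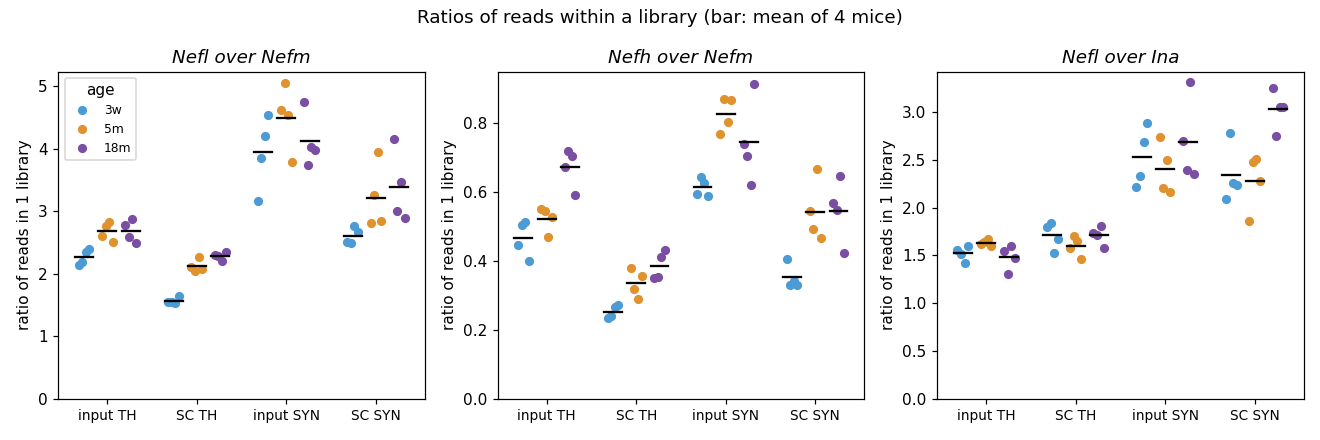
Reads of Nefl per read of Nefm, of Nefh per read of Nefm and of Nefl per read of Ina in each library (linear axes from 0), by fraction and age, with a bar for the mean of 4 mice. Reads of Nefl per read of Nefm in SC TH lay at 1.52 to 1.64 at 3w and at 2.05 or more at the later ages.

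Between 3w and 5m the ribosome pellet of the homogenate gained Nefl and Ina and lost Nefm. Nefl was at 362, 404, 370 and 407 CPM at 3w and at 429, 468, 437 and 456 CPM at 5m (1.16-fold, log2 0.22, SE 0.0660, adjusted p = 0.0318). Ina was at 201, 219, 242 and 244 CPM at 3w and at 273, 275, 264 and 313 CPM at 5m (1.24-fold, log2 0.31, SE 0.0782, adjusted p = 0.0118). Nefm was at 233, 261, 243 and 249 CPM at 3w and at 205, 229, 192 and 219 CPM at 5m (0.857-fold, log2 -0.22, SE 0.0737, adjusted p = 0.0447). For these 3 genes the ages did not overlap, and Nefh had a log2 fold change of 0.19 (adjusted p = 0.223).

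These 3 calls were close to the threshold, with 17.9% of all genes called in SC TH between 3w and 5m. The call of Ina was lost without mouse 194 alone (adjusted p = 0.0566). That of Nefl was lost without mouse 187, 189, 190, 192 or 194 (adjusted p = 0.102, 0.0941, 0.0532, 0.0588 and 0.105), and that of Nefm without mouse 187, 188, 190, 191, 193 or 194 (adjusted p = 0.0608, 0.117, 0.0660, 0.106, 0.117 and 0.0521). Without mouse 193 the fold change of Nefh was 0.29 on the log2 scale with an adjusted p of 0.0377. With only the 2 ages in the fit, Nefl and Nefm did not pass (adjusted p = 0.0734 and 0.0656), nor with all 48 libraries (0.104 and 0.0993), nor Nefm with no filter (0.121). Beside them, the summed oligodendrocyte markers in SC TH went from 3089 to 3930 CPM at 3w to 1599 to 1736 CPM at 5m, the pan-neuronal markers from 5263 to 5707 CPM to 5723 to 6209 CPM, and the nuclear RNAs from 10107 to 13165 CPM to 7275 to 10414 CPM. Their part in the result was not tested.

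Nefh, the heavy subunit, rose from 5m to 18m in input TH and from 3w to 5m in SC SYN. In input TH, Nefh was at 51.7, 60.6, 53.5 and 45.1 CPM at 3w, at 53.2, 59.0, 46.3 and 62.4 CPM at 5m, and at 72.1, 82.8, 72.2 and 71.3 CPM at 18m. The oldest mice lay above all others, and the step from 5m to 18m was 1.35-fold (log2 0.43, SE 0.0921, adjusted p = 0.00697). With every mouse left out in turn the adjusted p was 0.0269 or less, and under the other settings it was 0.0462 or less. Ina rose 1.17-fold in the same step (adjusted p = 0.0335), at 156, 183, 167 and 186 CPM at 5m and at 193, 229, 185 and 205 CPM at 18m, with overlap. Its call was lost without mouse 191, 193, 196 or 198 (adjusted p = 0.0735, 0.0900, 0.114 and 0.0783), by library size (0.0575), with only the 2 ages in the fit (0.0713) and with all 48 libraries (0.203). Nefl and Nefm had log2 fold changes of 0.08 and 0.08 (adjusted p = 0.346 and 0.469). Thus 2 of 4 members passed, and 15.5% of all genes. Over this step in input TH the summed nuclear RNAs went from 18667 to 19725 CPM at 5m to 16698 to 18294 CPM at 18m. The pan-neuronal markers overlapped, at 3184 to 3909 CPM and 3615 to 3768 CPM. Their part was not tested.

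In SC SYN, Nefh was at 35.2, 34.2, 30.4 and 34.3 CPM at 3w, at 46.3, 48.5, 51.2 and 46.6 CPM at 5m and at 61.5, 64.6, 70.4 and 46.2 CPM at 18m. The step from 3w to 5m had no overlap and was 1.44-fold (log2 0.52, SE 0.130, adjusted p = 0.0257), and Nefh was the 1 member of 4 that passed, with 8.05% of all genes. The adjusted p was 0.0559, 0.0838, 0.0542, 0.0567 and 0.0704 without mouse 188, 189, 190, 192 and 193. Over this step in SC SYN the summed oligodendrocyte markers went from 7630 to 9260 CPM at 3w to 2940 to 3248 CPM at 5m, and the microglial markers from 310 to 401 CPM to 556 to 706 CPM, and their part was not tested. In input SYN the 4 values at 5m (51.2, 53.3, 51.9 and 67.2 CPM) also lay above those at 3w (48.5, 46.6, 44.0 and 42.0 CPM), but the adjusted p was 0.232, and 0 of 4 members passed in edgeR or DESeq2 (1, Nefh, at an unadjusted p under 0.05) where 3.22% of all genes did.

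No member passed edgeR's test in the remaining steps, and none passed in DESeq2. In input TH between 3w and 5m (0 of 4, with 11.8% of all genes called), the log2 fold changes ranged from -0.11 to 0.14, 1 member (Nefl) had an unadjusted p under 0.05, and Nefl passed without mouse 191 (adjusted p = 0.0215). In SC TH between 5m and 18m (0 of 4, 2.17% of all genes) they ranged from -0.08 to 0.12, with 0 members at an unadjusted p under 0.05. In input SYN (0 of 4, 0.139% of all genes) they ranged from 0.02 to 0.28, with 1 such member, Nefm. In SC SYN between 5m and 18m (0 of 4, 0.014% of all genes) Nefl had 0.39 (SE 0.133, adjusted p = 0.211), Nefm 0.30 (SE 0.114, adjusted p = 0.223) and Nefh 0.34 (SE 0.127, adjusted p = 0.223), and these 3 had an unadjusted p under 0.05. There the 4 values of Nefm at 18m (109, 118, 109 and 109 CPM) lay above all at 5m (85.2, 98.5, 77.0 and 99.9 CPM). Of all genes in that step, 2 passed, and 1 to 1457 passed under the other settings. With all 48 libraries in 1 fit, Nefl passed in that step (0.35, adjusted p = 0.00894). The steps from 3w to 5m and from 5m to 18m share the mice of 5m.

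**Figure D4:**
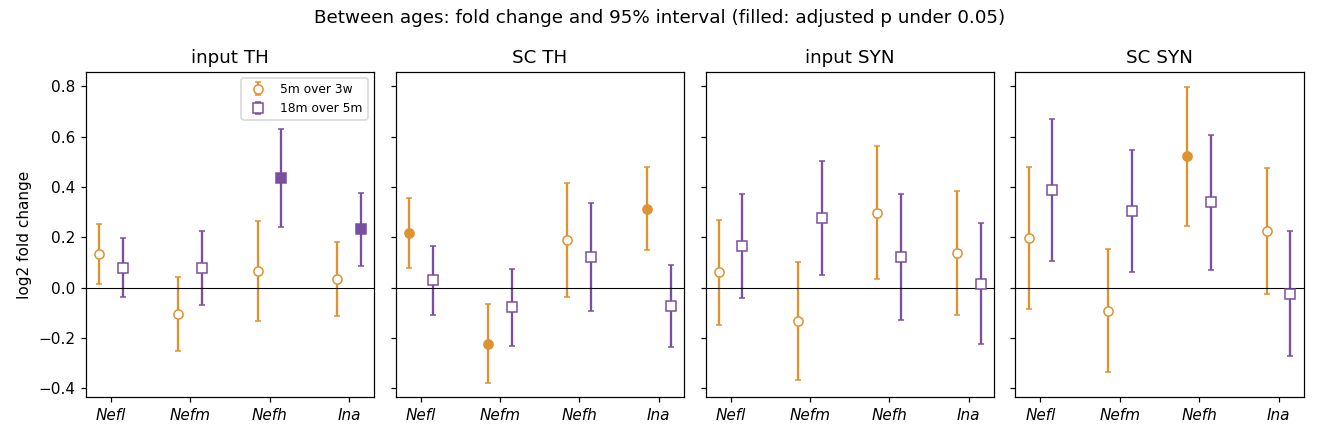
Log2 fold change of the 4 genes from 3w to 5m (circles) and from 5m to 18m (squares) in each fraction, with the 95% interval, filled where the adjusted p is under 0.05. The filled points are Nefh and Ina from 5m to 18m in input TH, Nefl, Nefm and Ina from 3w to 5m in SC TH, and Nefh from 3w to 5m in SC SYN.

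The changes with age were not shown to differ between compartments or between pellet and input. For the change of SYN against that of TH, no member passed in the pellet from 3w to 5m (0.0301% of all genes called) or from 5m to 18m (0.0%), or in the input from 3w to 5m (0.0224%) or from 5m to 18m (2.42%). The values furthest from 0 were those of Nefm and Nefl in the pellet from 5m to 18m, 0.37 and 0.35 higher in SYN on the log2 scale (95% intervals 0.11 to 0.64 and 0.05 to 0.64, adjusted p = 0.180 and 0.226), and of Nefh in the pellet from 3w to 5m, 0.35 (adjusted p = 0.617). For the ratio of pellet to input, no member passed in SYN (0.0% of all genes in both steps) or in TH (2.33% and 1.78%). By DESeq2, 0 members passed in any of these 8 comparisons. At an unadjusted p under 0.05 there were 2 and 1 in the pellet for SYN against TH, from 5m to 18m and from 3w to 5m, and 2 and 1 for the ratio in TH, and 0 in the others. In TH, the ratio of Ina had log2 changes of 0.26 from 3w to 5m (adjusted p = 0.166) and -0.30 from 5m to 18m (adjusted p = 0.136), and the ratio of Nefh -0.31 from 5m to 18m (adjusted p = 0.262). The fold of Nefm in SC TH over input TH, 2.29, 2.08 and 1.86 at the 3 ages, was not shown to change.

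Other intermediate filament genes differed between SC SYN and SC TH in both directions. Of 10 such genes, Gfap, the astrocyte filament protein, was higher in SC SYN than in SC TH by 2.31, 2.17 and 2.06 on the log2 scale at 3w, 5m and 18m, and Vim (vimentin) by 0.44, 0.64 and 0.44, while the nuclear lamin genes Lmna and Lmnb2 were lower, by -0.37 and -0.54 at 3w. In that comparison at 3w, 2 of 9 tested passed upwards and 3 downwards, with a median of 0.21 against -0.04 for all genes, of which 31.1% passed upwards and 32.4% downwards. Between 3w and 5m, Nes (nestin, of progenitor cells) fell by 0.82 in SC TH, 1.36 in input SYN and 1.02 in SC SYN on the log2 scale. Prph (peripherin, the neurofilament partner of peripheral nerve) was at 0.763 to 2.44 CPM on average in the 12 groups.

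Genes for transport, phosphorylation and turnover of neurofilaments showed no common direction with age. Of 24 such genes, 4 rose and 3 fell in SC TH from 3w to 5m (9.48% and 8.46% of all genes), and Kif5c, a kinesin heavy chain, was the 1 that fell in SC SYN, by 0.53. Between the compartments, Kif5a, the kinesin that carries neurofilaments, was 2.14 higher in SC SYN than in SC TH at 3w on the log2 scale, Dync1h1 (dynein heavy chain) 1.40 and Dst (dystonin, a linker) 1.22, while Mapk8 was at -1.16 and Rock2 at -0.79, with 7 of 24 up and 6 down, near the 31.1% and 32.4% of all genes. In the input of SYN against TH at 3w, 12 were up and 7 down (median 0.11, all genes -0.18), with 31.7% of all genes up and 39.3% down.

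Many microtubule and outgrowth genes fell from 3w to 5m. Of 22, 12 fell and 0 rose in input TH from 3w to 5m, among them Dpysl3 (by 0.70), Tubb2a (by 0.50), Dcx (by 0.49) and Tubb4a (by 0.44), with a median of -0.17 against 0.01 for all genes, of which 7.05% fell and 4.76% rose. In SC TH 6 fell and 2 rose in the same step (median -0.04), where 8.46% of all genes fell and 9.48% rose. In SC SYN 5 fell and 0 rose, where 4.02% of all genes fell and 4.02% rose, with Dcx, doublecortin of migrating and growing neurons, at -1.13. From 5m to 18m in input TH 8 rose and 1 fell, where 8.18% of all genes rose and 7.35% fell, led by Stmn3 at 0.38 and Tubb3 at 0.36.

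Of 13 genes of neurons rich in neurofilaments, the fast-spiking interneurons and the layer 5 projection neurons, none fell between ages in the 8 steps. In SC TH from 3w to 5m 6 of 13 rose (median 0.26, all genes 0.01), where 9.48% of all genes rose: Spp1 by 1.15, Syt2 by 0.57, Scn4b by 0.52 and Bcl11b by 0.43 were the largest. In SC SYN from 3w to 5m, Syt2 (0.58) and Bcl11b (0.57) rose, 2 of 13 beside 4.02% of all genes. In input TH from 5m to 18m, where Nefh and Ina rose, Pvalb (0.44), Syt2 (0.22) and Vamp1 (0.20) rose too, 3 of 13 beside 8.18% of all genes. The summed level of the 13 genes was 1789 to 1838 CPM in input TH at 3w, 1638 to 1955 CPM at 5m and 1848 to 1960 CPM at 18m.

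The genes with the pattern most like each member over the 48 libraries were given by Pearson's r of log2 CPM among 9050 genes, a description in which all libraries of a fraction share its composition. For Nefl they were Arhgap44 (0.91), Pip4k2b (0.89), Smarcc2 (0.88), Cplx2 (0.87) and Smarca2 (0.86). For Nefm they were Pcbp3 (0.92), Rad23b (0.91), Supt5 (0.91), Ndrg4 (0.91) and Sf1 (0.91). For Nefh they were Rab11fip5 (0.85), Aff3 (0.83), Ank1 (0.82), Rims3 (0.79) and Arid1b (0.77), and for Ina they were Ube2o (0.91), Fezf2 (0.89), Pgbd5 (0.89), Rbfox3 (0.89) and Dnm1 (0.88).

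None of the 4 was among the 5 genes most like another. Nefm and Ina had r = 0.69, Nefl and Nefh 0.60, and Nefm and Nefh 0.10. After the mean of each fraction was subtracted, Nefh and Ina had r = 0.69, Nefl and Nefh 0.68, Nefl and Ina 0.57, and Nefm and Ina 0.04. The genes then most like Nefh were Ank1 (0.89), Trim66 (0.86), Rab11fip5 (0.84), Aff3 (0.84) and Arhgef17 (0.84). Those most like Nefl were Pex5l (0.89), Sipa1l1 (0.88), Rapgef2 (0.87), Ash1l (0.87) and Fmn1 (0.86), and those most like Ina were Pacsin1 (0.85), Efhd2 (0.85), Stac2 (0.83), Bag6 (0.82) and Ccdc92b (0.82). Nefm had the weakest likeness of the 4 on this scale, to Actn1 (0.71), Glt1d1 (0.69), C2cd5 (0.65), Add1 (0.65) and Actn4 (0.64).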

How the data were processed

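The authors prepared rRNA-depleted libraries with UMI adaptors (whether the UMIs were used is not given in the sources used here), sequenced them single-end, demultiplexed with bcl2fastq 2.20.0.422, aligned to GRCm38 with TopHat2 2.1, and deposited raw counts per gene from featureCounts run without strand. Of the 48526 genes, 48144 had an entry in GENCODE M21, which gave symbols, lengths and coding sequences. The authors' annotation was another release, so whether it held the long Nefm isoform is not known.

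Counts were filtered with filterByExpr, scaled by TMM and tested with edgeR 4.0.16 (quasi-likelihood, R 4.3.3), with Benjamini-Hochberg adjustment over all genes tested and a threshold of 0.05. Fits held 12 libraries of 1 fraction, or 24 of 1 kind or compartment. Mouse numbers pair the 4 fractions, and deviations of 1 mouse's libraries from their group means had median correlations from -0.0101 to 0.109. The tests were checked on simulated data, with 184 of 199 genes changed by 1.5 (log2) recovered in SC SYN between 3w and 5m, 180 of 193 in SC SYN over SC TH at 5m, and 147 of 198 for the change of the pellet to input ratio in TH between 3w and 5m. In these 3 simulations 10, 10 and 8 unchanged genes were called. A log2 change of 1.5 is larger than every member change reported here, so the recovery of smaller changes was not checked. All 72 replicate pairs differed by more than sampling noise. Named genes were the 4 members, up to 4 of each list with the largest called changes, and the 5 most alike by r (mean CPM at least 10, prior count 2). Members and lists were chosen with earlier results of these data known. For the age steps within a fraction, p-values measure the spread between mice. The fits of 24 libraries held paired libraries of the same mice with no term for mouse. Their p-values therefore ignore the pairing and pool the spread between mice with that between libraries of a mouse. DESeq2 1.42.0, library-size scaling, no filter, other sets of libraries, no mitochondrial genes, the replicate block and each mouse left out were tried. One sequence is not reported here.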

Additional observations from a re-analysis of the deposited data

Results flagged for a closer look

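In 6 of 120 groups of 4 mice, 1 library stood apart from the other 3 by Dixon's criterion, the gap to the nearest library divided by the range of the group, and chance gives about 1 in 20. Nefh in input TH at 18m had a ratio of 0.838, with mouse 196 at 69.2 CPM and the others at 59.6 to 61.2 CPM. Nefh in input SYN at 5m had 0.867, with mouse 194 at 79.2 CPM and the others at 59.7 to 62.3 CPM, and reads of Nefh per read of Nefl in that group had 0.832, with the same mouse at 0.229 and the others at 0.166 to 0.176. Ina in input TH at 3w had 0.861, with mouse 187 at 137 CPM and the others at 146 to 148 CPM. In SC SYN at 3w, reads of Nefh per read of Nefm had 0.837, with mouse 187 at 0.405 and the others at 0.329 to 0.341, and reads of Nefm per read of Ina had 0.921, with mouse 188 at 1.12 and the others at 0.816 to 0.839.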

How the results depend on the processing

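Alternative values were counted only for the pairs of member and comparison selected for reporting. Of these 675 values of a member's log2 fold change, 597 kept their direction and side of the threshold, 46 lost the call, 12 gained one and 20 turned sign. Pairs outside the selection changed too: Ina gained 1 call in SC SYN from 3w to 5m. In input TH from 3w to 5m, Ina reached -0.0073 and Nefh -0.0038 with a mouse left out. Scaled to library size, SYN over TH turned for Nefl (-0.26) and Nefh (-0.31) in the pellets at 18m, for Nefh at 5m (-0.58), and in the inputs for Nefh (-0.20, -0.029 and -0.25 at 3w, 5m and 18m), Ina (-0.55 at 3w and -0.50 at 5m) and Nefm (-0.41 at 18m). Members called then became 1 in both steps of input TH and 4 in the pellets at every age and in the inputs at 18m. In the inputs at 3w and 5m they were still 2, but Nefm and Ina in place of Nefl and Nefh. Other signs that turned belonged to values near 0. Nefh in the pellets at 5m was -0.019 with DESeq2, -0.049 without the filter, -0.014 with all 48 libraries in 1 fit, and -0.12 to 0.078 with each mouse left out. Ina in the inputs at 3w was -0.053 with DESeq2, -0.033 without the filter, and -0.032 to 0.056 with each mouse left out, and Nefm at 5m was -0.071 to 0.030. Nefh in SC SYN over input SYN at 18m was 0.0030 without the filter and -0.17 to 0.12 with each mouse left out.

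Members called became 1 in input TH from 5m to 18m and in SC TH from 3w to 5m with only the 2 ages or with all 48 libraries in the fit, and with all 48 libraries 3 in SC SYN from 3w to 5m and 1 from 5m to 18m. They became 1 in the inputs at 18m with DESeq2 and 1 in SC SYN over input SYN at 3w without the filter. With each mouse left out, members called ranged from 0 to 1 in input TH from 3w to 5m, 1 to 2 from 5m to 18m, 0 to 3 in SC TH from 3w to 5m, 0 to 1 in SC SYN from 3w to 5m, 1 to 2 in the inputs at 3w, and 1 to 2, 0 to 1 and 0 to 1 in SC SYN over input SYN at 3w, 5m and 18m. Calls also changed in comparisons not in this list. In SC SYN over SC TH, Nefh was lost at 3w without mouse 189. At 18m, Nefl was lost there without mouse 195 or 197 or without the filter, and Nefh was gained without mouse 198. In SC TH over input TH at 3w, Nefh was lost without mouse 189 or 190. In the inputs at 18m, Nefh was lost and Nefm gained without mouse 198. The cause was not tested.

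With mouse as a replicate block, the count of members called was the same in all 20 comparisons that could be blocked, for example 3, 2 and 3 in the pellets at 3w, 5m and 18m. The block moved calls over all genes from 5 to 10 for the change in the pellet from 3w to 5m in SYN against TH, from 4 to 8 in the input, from 432 to 661 in the input from 5m to 18m, and from 429 to 664 for the ratio in TH from 3w to 5m.

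Calls over all genes depended more on the setting. Other settings gave 761 to 2383 (2136 as reported) in input TH from 3w to 5m, 183 to 3059 (2808) from 5m to 18m, 228 to 746 (356) in SC TH from 5m to 18m, 417 to 895 (418) and 12 to 102 (18) in input SYN, 1154 to 3464 (1146) and 1 to 1457 (2) in SC SYN, and 0 to 1303 (429) and 16 to 752 (328) for the ratio in TH. For SYN against TH they gave 6 to 55 (5) and 0 to 272 (0) in the pellet and 2 to 36 (4) and 77 to 1109 (432) in the input, and 1422 to 2842 (1799) in SC SYN over input SYN at 18m. With each mouse left out, 1653 to 4124 genes (2948) were called in SC TH from 3w to 5m, 1404 to 3389 (2808) in input TH from 5m to 18m, 84 to 774 (356) in SC TH from 5m to 18m, 224 to 299 (418) and 7 to 19 (18) in input SYN, 558 to 1264 (1146) and 0 to 2 (2) in SC SYN, 1 to 1350 (429) and 33 to 1282 (328) for the ratio in TH, 0 to 8 (5) and 0 to 1 (0) in the pellet and 2 to 4 (4) and 73 to 381 (432) in the input for SYN against TH, and 1558 to 1871 (2651), 1643 to 2166 (2862) and 968 to 1480 (1799) in SC SYN over input SYN. In input SYN, 75 reads of Nefh limit the precision.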
